A study of Mus musculus with 30 samples.

Results

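A1CF was precipitated with its crosslinked RNA from mouse hepatocytes in 10 CLIP-seq libraries, and 78 of the 41388 genes counted had at least 1 read in every one of them. Chromosome 14 was left out of this choice, and with it included the number was 81. The 78 RNAs were thus chosen by their CLIP counts, and their CLIP values are given as a description, with no test. The CLIP libraries came from plated hepatocytes of 12-week-old A1cf +/Tg mice, irradiated with 400 mJ/cm2 of ultraviolet light at 254 nm. RNA-seq of hepatocytes from 12-week-old mice covered 3 pools labelled A1cf_Tg/+ (Tg below) and 3 pools of wild-type C57BL/6J. RNA-seq of livers from 12-month-old mice covered 4 pools labelled Tg, 4 of wild-type C57BL/6J, 3 of A1cf -/- knockouts and 3 of wild-type C57BL/6NJ. A pool held 3 to 4 mice. Nothing says whether 1 mouse went into several pools or whether CLIP libraries come from separate cultures, so p-values measure the spread between these samples, which may be technical. The study sequenced Tg and C57BL/6J livers together, and knockout and C57BL/6NJ livers in another round. The promoter that drives the transgene is not given in the sources used here, and no control precipitate is among the libraries.

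A1CF is an RNA-binding protein of liver and gut, that guides the deaminase APOBEC1 to the edited base of Apob mRNA. It binds an AU-rich element beside that base. CLIP joins a protein to the RNA it touches by ultraviolet light, and the RNA that stays with the precipitated protein is sequenced. Here the lysates were cut with RNase T1, and the recovered fragments passed through 40 and then 35 cycles of PCR. Such reads can be copies of 1 molecule, so all intervals cover counting error only.

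In RNA-seq, A1cf was not higher in the pools labelled Tg. Hepatocytes labelled Tg held 7.36 to 10.5 CPM (counts scaled to library size) of A1cf and their controls 6.46 to 11.02. Livers labelled Tg held 156 to 174 CPM, below their controls at 216 to 279. Knockout livers held 20.1 to 28.9 CPM against 199 to 237 in their controls. The label Tg is therefore used as the name of a set of libraries and not as a measured overexpression.

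The primers of the first PCR are shown because every fragment counted was amplified between them. Capitals mark the last 8 bases at the 3′ end, from which a polymerase extends.
DP5a: agggaggaCGATGCGG
DP3: ccgctggaagtgACTGACAC

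A CLIP library held 6151 to 10902 counts in 1043 to 1410 genes, and an RNA library 17044839 to 37211328 counts. A count of 0 still allows a share of 0.0275% in the deepest CLIP library and of 0.0488% in the shallowest. The CLIP libraries fell into sets that were unlike each other, with 1, 3, 4, 6 and 10 on one side and 2, 5, 7, 8 and 9 on the other. Chi-square per degree of freedom of the gene counts ranged from 69.4 to 95 between libraries of different sets and 1.44 to 14.1 within a set. Even the closest pair, libraries 7 and 8, differed more than independent reads would (chi-square p = 0.00123). Reads copied by PCR are not independent, so this p-value does not show a difference beyond the sampling of molecules. Libraries 1, 3, 4, 6 and 10 had 235 genes in common and libraries 2, 5, 7, 8 and 9 had 234. The 78 RNAs were 33.2% of the first list and 33.3% of the second. No label separates the sets, and what divides them was not tested.

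The 78 RNAs together took 33.0% ± 6.35 (SD, n = 10) of the CLIP counts. The lowest share was 24.1% (95% Wilson interval 23.3 to 24.9%) in library 4, the median was 33.9%, and the highest was 39.7% (38.5 to 40.9%) in library 5. Libraries 2, 5, 7, 8 and 9 lay at 38.1 to 39.7% and the 5 others at 24.1 to 29.8%, with no overlap. Pantr1, Wnt11, Zfhx3 and Ggta1 alone took 15.3 to 29.6% of a library. The other 74 RNAs took 7.35 to 12.4%, or 592 to 952 counts.

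**Figure D1:**
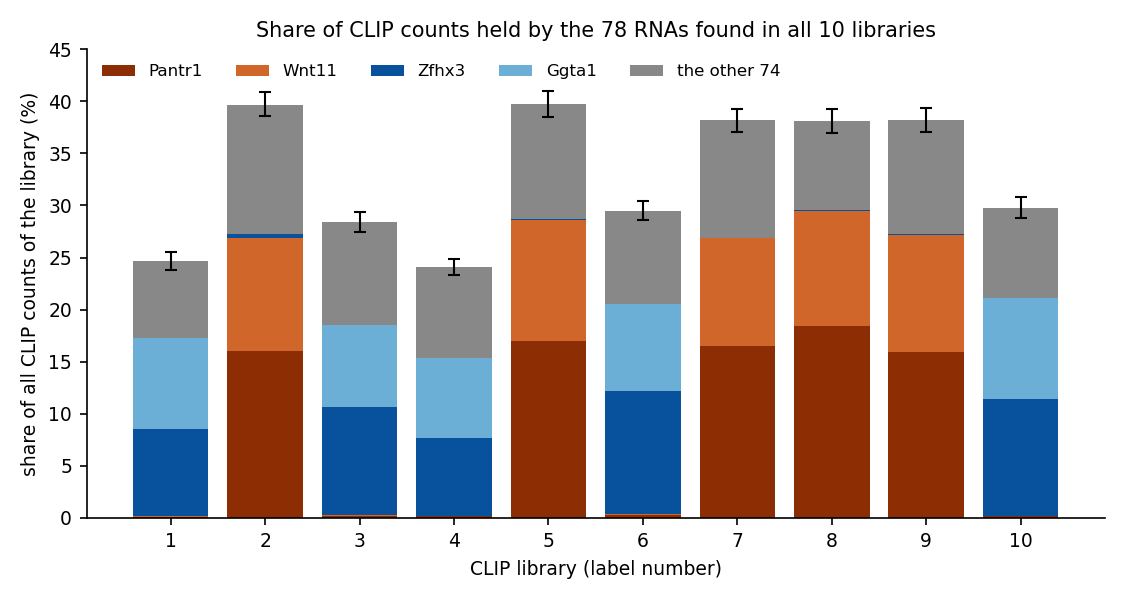
Share of all counts of each CLIP library (y axis, percent) taken by the 78 RNAs, by library (x axis), with the 4 RNAs of highest mean share in colour, the other 74 in grey and the 95% Wilson interval of the sum as a bar. Libraries 2, 5, 7, 8 and 9 reach 38.1 to 39.7% and the others 24.1 to 29.8%.

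The noncoding RNAs of the set were 5 lincRNAs, 2 antisense RNAs and 1 processed pseudogene. For 1 more gene, ENSMUSG00000099515, no biotype was found in GENCODE M21. Its exons overlap those of Pou2f1 on the same strand and of Cd247 on the opposite strand, so its reads may belong to either. Pantr1 (ENSMUSG00000060424, GRCm38 chromosome 1, 42590782 to 42694842, minus strand), a lincRNA next to the neural transcription factor gene Pou3f3, had the highest mean share of all 78, 8.49%. Its counts in libraries 1 to 10 were 11, 1110, 16, 17, 1046, 30, 1191, 1287, 1089 and 12. It was high in libraries 2, 5, 7, 8 and 9 and low in the 5 others, which reached at most 0.302% of their counts. RNA-seq held 1 Pantr1 read in wild-type hepatocytes and 0 in the other 5 groups.

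Gm26688 (ENSMUSG00000097752, chromosome 13, 40727808 to 40735162, plus strand), an antisense RNA whose exons overlap those of the transcription factor gene Tfap2a, was spread evenly over the libraries. Its lowest, median and highest counts were 26, 41 and 49. The SD of its counts over libraries was 6.95, close to the 6.32 that counting error alone gives. 1700104B16Rik, Gm16070, Gm26819, Gm5600 and Gm28511 ranged between 1 and 21 counts in a library, and the pseudogene Gm14921 between 1 and 4. Whether reads were counted by strand is not given in the sources used here, so an antisense RNA cannot be told apart from the gene opposite to it. Exons of 23 of the 78 were overlapped by those of another annotated gene, 22 of them by one on the opposite strand.

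Among secreted ligands, cell surface proteins and matrix, Wnt11 (ENSMUSG00000015957, chromosome 7, 98835112 to 98855195, plus strand), a ligand of noncanonical Wnt signalling, followed the libraries as Pantr1 did. Its counts in libraries 1 to 10 were 2, 748, 3, 2, 714, 11, 745, 769, 770 and 2. Its highest share was 633 times its lowest. Tenm2, a teneurin of neuronal contacts, was present throughout, with 62 counts at the lowest, 86.5 at the median and 112 at the highest. Its share was 1.11% ± 0.158 (SD, n = 10). Plxnd1, the plexin that serves as a semaphorin receptor, had 31 to 43 counts in libraries 1, 3, 4, 6 and 10 and 1 to 3 in the others. Fn1, fibronectin, a matrix and plasma protein that hepatocytes secrete, had 1 to 9 counts, and Fbn2, a fibrillin of elastic fibres, 1 to 4.

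Among transcription factors, Zfhx3 (ENSMUSG00000038872, chromosome 8, 108703100 to 108961630, plus strand), a large zinc finger and homeodomain protein, was high where Pantr1 was low. Its counts in libraries 1 to 10 were 811, 24, 833, 812, 7, 1167, 2, 5, 7 and 919. Dmrta1, a factor with a DM domain, had 17, 25 and 43 counts at the lowest, median and highest. Cebpd, a C/EBP factor of the acute phase, had 3, 7 and 10. Counts of Dmrta1 and Cebpd overlapped between the sets of libraries.

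Among enzymes, Ggta1 (ENSMUSG00000035778, chromosome 2, 35400179 to 35463231, minus strand), the galactosyltransferase that makes the alpha-gal epitope, shared the pattern of Zfhx3. Its counts in libraries 1 to 10 were 851, 2, 635, 842, 1, 833, 2, 1, 1 and 797. Zdhhc22 (ENSMUSG00000048483, chromosome 12, 86983381 to 86988676, minus strand), a palmitoyltransferase of the DHHC family, had 77, 102 and 118 counts at the lowest, median and highest. It was the most abundant of the evenly spread RNAs, at 1.28% ± 0.266 (SD, n = 10) of a library. A4gnt, a glycosyltransferase of gastric mucin, had 22, 37 and 64 counts, and the sialidase Neu4 5, 8.5 and 17. The count SD of A4gnt, 13.7, was larger than the 6.28 of counting error.

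Of RNAs with a known liver role, Sec14l2 (ENSMUSG00000003585, chromosome 11, 4097039 to 4123415, minus strand), a tocopherol-binding protein that stimulates cholesterol synthesis, was the most even. It had 65, 76.5 and 86 counts at the lowest, median and highest, with an SD of 8.53 against a counting error of 8.69. Slco1b2, the organic anion transporter of the hepatocyte's sinusoidal membrane, had 5, 8 and 11 counts.

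The remaining named RNAs were structural or of other function. Ppl, the desmosome-linked cytolinker periplakin, had 9, 26.5 and 36 counts, and Msn, moesin, which ties actin to the membrane, 1, 3 and 8. Lyrm9, a small LYR-motif protein, had 18, 36.5 and 44. Piwil1, the germline partner of piRNAs, had 4, 7 and 12 counts. Slco1b2, Neu4, Plxnd1, Piwil1 and the smaller noncoding RNAs were picked for description after their values were seen.

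The sets of libraries were read from these same counts, so the contrast of Pantr1 and Wnt11 with Zfhx3 and Ggta1 is how the sets show and not a separate result. The highest share was more than 20 times the lowest for 6 RNAs, among them the 4 of highest share, and at most 5 times for 38. Within a set the Spearman correlation of shares over the 78 RNAs was 0.564 to 0.798 and between sets 0.319 to 0.629. These are descriptions over RNAs of the same libraries, with n = 78.

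**Figure D2:**
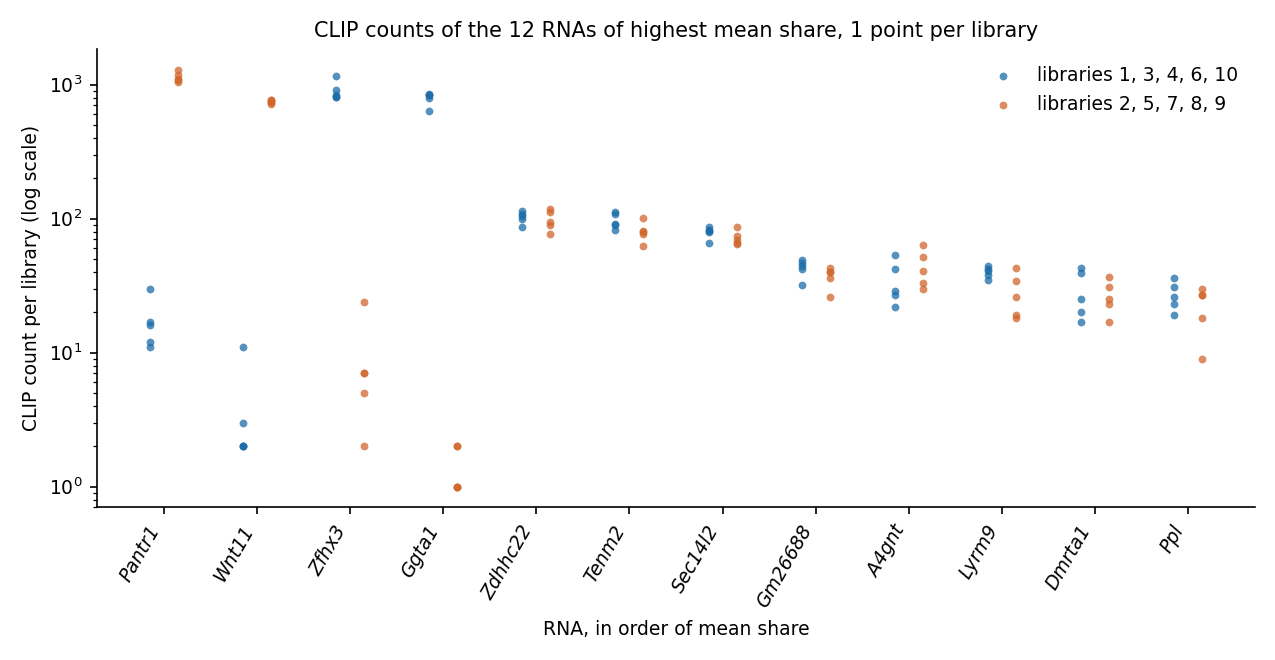
Counts of the 12 RNAs of highest mean share (y axis, log scale) in each of the 10 CLIP libraries, 1 point per library, coloured by the set the library belongs to. Pantr1 and Wnt11 lie high in libraries 2, 5, 7, 8 and 9, Zfhx3 and Ggta1 in the others, and Zdhhc22, Tenm2 and Sec14l2 lie close together in all 10.

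Low counts made up most of the set. Its median RNA had 48.5 counts over the 10 libraries, 16 RNAs had at least 100, and 39 had a lowest count of 1. Just inside the limit were Tspoap1 with 17 counts in all, Gm14921 with 18, Fbn2 and the metalloproteinase gene Mmp27 with 19 each, and Pdlim7, a PDZ and LIM protein of actin fibres, with 20. Just outside it were 52 genes with a count in 9 libraries. Of these Itpripl2 had 5543 counts and Fignl2 4800, both with 0 in library 5, and both exceeded all of the 78 RNAs but Pantr1. Me1, malic enzyme, had 1805 counts with 0 in library 1, Myh7b, a myosin heavy chain, 1605 with 0 in library 10, and Specc1l 638 with 0 in library 7. These 5 were the most abundant of the 52, of which 40 had fewer counts than the median of the 78.

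The RNAs covered a wide range of levels in RNA-seq. Their median level was 2.42 CPM in Tg hepatocytes, 3.71 in wild-type hepatocytes, 4.98 in Tg livers, 4.16 in C57BL/6J livers, 5.02 in knockout livers and 5.38 in C57BL/6NJ livers. In Tg hepatocytes 32 of the 78 (41.0%) lay under 1 CPM, 32 (41.0%) at 10 CPM or more and 10 at 100 or more. Over all genes outside chromosome 14, 71.4% lay under 1 CPM and 20.3% at 10 or more, so the 78 were more often expressed than genes at large. The 543 genes with a count in 5 to 9 CLIP libraries had a median of 8.58 CPM there. Per length, the medians were 0.454 RPKM (CPM per kilobase of gene length) for the 78 and 1.80 RPKM for those 543. Together the 78 made up 0.504 to 0.554% of the RNA of a Tg hepatocyte pool and 0.589 to 0.777% of a C57BL/6J liver pool.

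In all 6 hepatocyte pools 9 of the RNAs had no read: Zdhhc22, Neu4, Piwil1, Gm16070, Gm5600, Gm28511, Tunar, Serpina1f and Fbn2. Neu4, Piwil1, Gm5600 and Gm28511 had none in any of the 20 RNA libraries. The 32 RNAs under 1 CPM in Tg hepatocytes, Pantr1 and Wnt11 among them, took between 3.88 and 35.1% of the counts of a CLIP library. Tenm2 had 1 read in Tg hepatocytes and none in wild-type hepatocytes.

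Other RNAs of the set were well expressed. Fn1 stood at 1977 to 2372 CPM in Tg hepatocytes, Pdlim7 at 568.9 to 703.2 and Msn at 275.9 to 317.1. Zfhx3 stood at 100.02 to 172.9 CPM in Tg hepatocytes, 170.8 to 221.5 in wild-type hepatocytes and 38.7 to 118.8 over the 4 liver groups. Sec14l2 stood at 57.1 to 71.6 CPM over the 6 hepatocyte pools and 421.2 to 669.8 over the liver pools. Slco1b2 stood at 4.41 to 29.7 CPM in hepatocyte pools and 699.9 to 1198 in livers. Sec14l2 and Slco1b2 were thus lower in every plated hepatocyte pool than in every liver pool, and Msn and Pdlim7 higher. The plated cells and the livers also differ in age and in cell mix. The sum of 6 endothelial markers was 18.7 to 39.5 CPM over hepatocyte pools and 318.6 to 488.2 over liver pools. Culture, age and cell mix cannot be told apart.

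**Figure D3:**
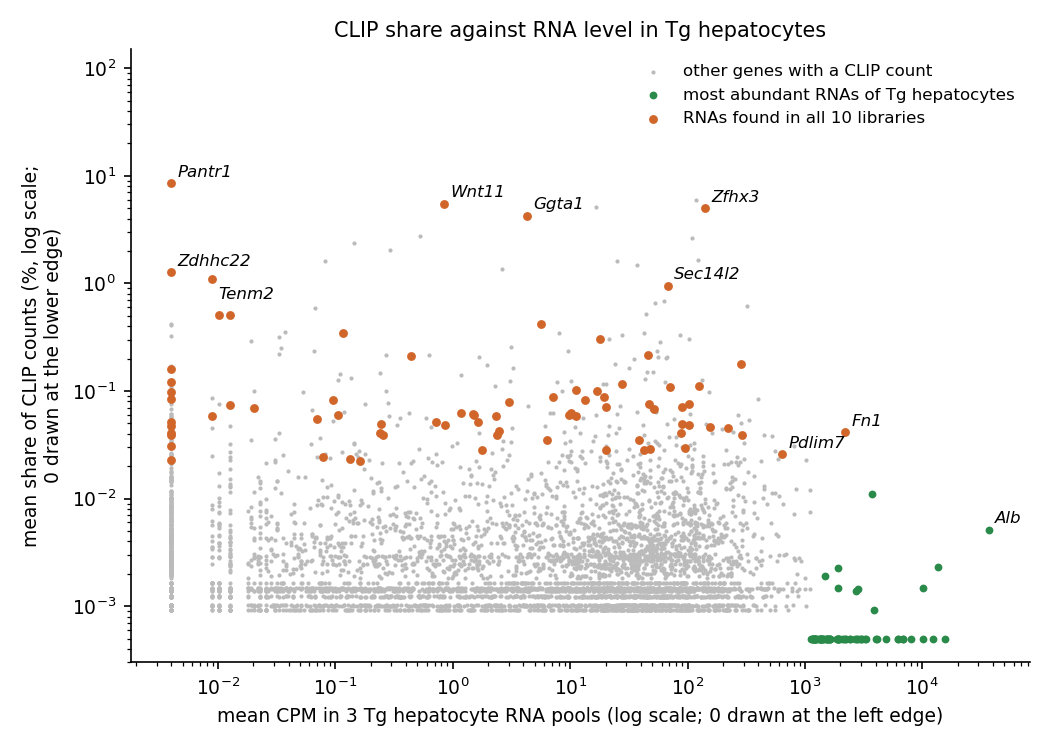
Mean CLIP share (y axis, percent, log scale) against RNA level in Tg hepatocytes (x axis, CPM, log scale), 1 point per gene, with the 78 RNAs in orange, the 78 most abundant RNAs of Tg hepatocytes in green and values of 0 drawn at the edges. Pantr1 lies at the upper left at 0 CPM, Zfhx3 at the upper right, and the most abundant RNAs, such as Alb, at the lower right.

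Genes with any CLIP count were expressed more than those without, with a median in Tg hepatocytes of 6.16 CPM for a count in 1 to 9 libraries and 0 for no CLIP count. Among genes that had a CLIP count, share and RNA level were not ordered alike. Spearman's rank correlation between mean CLIP share and CPM in Tg hepatocytes was -0.07 over the 78 RNAs and 0.05 over all 5652 genes with a CLIP count, values that share the same libraries and depth and cover only genes selected by a CLIP count. The log2 ratio of CLIP share to RNA share, with 1 CPM added to the RNA level, had a median of 7.59. Its sign follows largely from the choice of the RNAs, since the lowest mean CLIP share among them was 0.0221%. It was highest for Pantr1 (16.37), Wnt11 (14.88), Zdhhc22 (13.64), Tenm2 (13.425), Ggta1 (12.98) and Gm26688 (12.29). Where the RNA is near 0, these values rest on the added 1 CPM. The ratio was lowest for Fn1 (-2.41) and Pdlim7 (-1.31). Next came Msn (0.42), the nuclear envelope protein gene Tor1aip1 (1.03), Dop1b (1.58) and Mgea5, the enzyme that removes O-GlcNAc (1.61).

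The most abundant RNAs of Tg hepatocytes were nearly missing from CLIP. The 78 of highest CPM made up 26.0 to 28.7% of the RNA and 0.0373 to 0.158% of the CLIP counts. Of these, 66 had no CLIP count in any library, and Fn1 was the only one among the 78 RNAs found in every library. Over all 41388 genes, 35736 had no CLIP count, so the 66 alone do not set the abundant RNAs apart. Among the 8064 genes outside chromosome 14 at 10 CPM or more in Tg hepatocytes, 5570 had none. Alb, serum albumin, had 4 CLIP counts in all. Apob had 2, at 577.9 to 3157 CPM in Tg hepatocytes, and A1cf itself had 0.

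Gene length, summed over exons, ran from 450 bases (Gm28511) to 18504 (Pikfyve), with a median of 4677 and quartiles of 3284 and 7504. The 543 genes with a count in 5 to 9 libraries had a median of 4531 bases and genes with no CLIP count 998.5. Protein-coding genes were 69 of the 78 (88.5%), against 91.5% of the genes in 5 to 9 libraries and 45.9% of genes with no CLIP count. The RNAs came from 17 chromosomes. Zdhhc22 was counted over 792 bases, while its longest annotated transcript has 3462, so its level per length depends on the gene model. On the CLIP RPKM scale Pantr1 was highest at 19040.3, then Zdhhc22 at 16164, Wnt11 at 15211 and Ggta1 at 9049. Zfhx3, the longest of these, stood at 2834, near Sec14l2 at 2723.

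Longest annotated transcripts were searched for AU-rich words known for A1CF on the transcript strand (the word ATAATTA, the word ATAATTG, the word TTAATTA and the word TTAATTG), with overlapping matches counted. At least 1 was found in 36 of 77 RNAs (46.8%), against 41.2% of 13259 genes tested in hepatocytes and 26.7% of all 38576 genes with a transcript. Among transcripts of 2830 to 6217 bases it was 18 of 39 (46.2%), against 51.2 and 53.5%. Zdhhc22, Wnt11, Tenm2 and Sec14l2 held none, and Pantr1, Zfhx3 and Ggta1 held 1 each. Median A+T content was 49.7% in the 77 RNAs and 50.2% in the tested genes. The last 8 bases of DP5a, on either strand, were in 5 of 77 (6.49%) against 2.72% of tested genes, and those of DP3 in 12 (15.6%) against 11.3%. Among transcripts of 2830 to 6217 bases, DP5a ends were in 2 of 39 (5.13%) against 2.92%, and DP3 ends in 3 of 39 (7.69%) against 12.5%, the other way round. Among the 12 RNAs of highest share only Zfhx3 and Lyrm9 held either of these ends. A match is a description of the letters and no sign of a site, and reads may come from parts outside these transcripts.

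In hepatocytes labelled Tg against wild type, edgeR's quasi-likelihood test with Benjamini-Hochberg adjustment could be made for 51 of the 78 RNAs. It called 2 (3.92%), Cebpd higher and Msn lower. Of all 13770 genes tested 434, or 3.15%, were called, 1.53% higher and 1.62% lower, so the share among the 51 was near the background. At an unadjusted p under 0.05 there were 12 of the 51 (23.5%), against 28.9% of all genes. The median log2 fold change was -0.06 over the 51 and -0.02 over all genes, with 24 positive and 27 negative. In a single fit over all 6 RNA groups the median of all genes was 0.13 and the genes called were 2715 higher and 1608 lower, against 211 and 223 here.

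Cebpd held 99.9, 120.5 and 87.3 CPM in the Tg pools and 46.6, 28.5 and 28.5 in the wild-type pools. Every Tg pool was above every control, with a log2 fold change of 1.60 ± 0.25 (SE; edgeR adjusted p = 0.0299). Msn held 278.4, 317.1 and 275.9 CPM against 551.7, 495.3 and 619.5. Every Tg pool was below every control, with a log2 fold change of -0.89 ± 0.13 (SE; edgeR adjusted p = 0.0273). Both calls were lost when any of several single pools was left out. Leaving out Tg pool 1 gave Cebpd an adjusted p of 0.106, Tg pool 2 gave 0.153, wild-type pool 2 gave 0.0839 and wild-type pool 3 gave 0.140. For Msn, leaving out Tg pool 1 gave 0.111, Tg pool 2 gave 0.153, wild-type pool 1 gave 0.0852, wild-type pool 2 gave 0.0558 and wild-type pool 3 gave 0.134. Without Tg pool 3 the number of called RNAs was 17.

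Mgea5 just missed the threshold, at 80.3, 99.0 and 104.3 CPM against 155.6, 151.9 and 141.9 (edgeR adjusted p = 0.0502). Plxnd1 had a log2 fold change of 0.72 (edgeR adjusted p = 0.0756) and Ppl -0.77 (edgeR adjusted p = 0.0810). Tg pools 1 and 2 and wild-type pool 1 had 1.39 to 2.01% mitochondrial counts and the 3 others 3.14 to 3.71%. In the 3 others alone, with the lone Tg pool assumed to vary like the controls, Cebpd had a log2 fold change of 1.65 and Msn -0.98. Of 8 Kupffer cell and macrophage markers 2 were higher in every Tg pool, with a sum of 303.2 to 603.2 CPM against 185.8 to 278.3, and none was at 0. Of 5 cholangiocyte markers 3 were higher and 1 lower in every Tg pool, with a sum of 406.4 to 669.7 CPM against 690 to 1223. Of 6 stellate cell markers 3 were higher and none lower in every Tg pool, with a sum of 28.0 to 51.5 CPM against 19.5 to 26.0, and none was at 0. Of 12 skeletal muscle markers 2 were higher and 1 lower in every Tg pool, with a sum of 17.8 to 47.1 CPM against 4.89 to 12.6, and Myl1, Tnnc2, Tnnt3, Myh1, Myh4 and Pvalb were at 0 in both groups, with Ckm at 0 in the Tg pools. None of these markers was called. The share of all genes set apart in this way is not given here, so these counts cannot be read as a shift in a cell type. The part of these markers in the differences above was not tested. In bulk samples fewer cells of a type and less RNA per cell cannot be told apart.

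**Figure D4:**
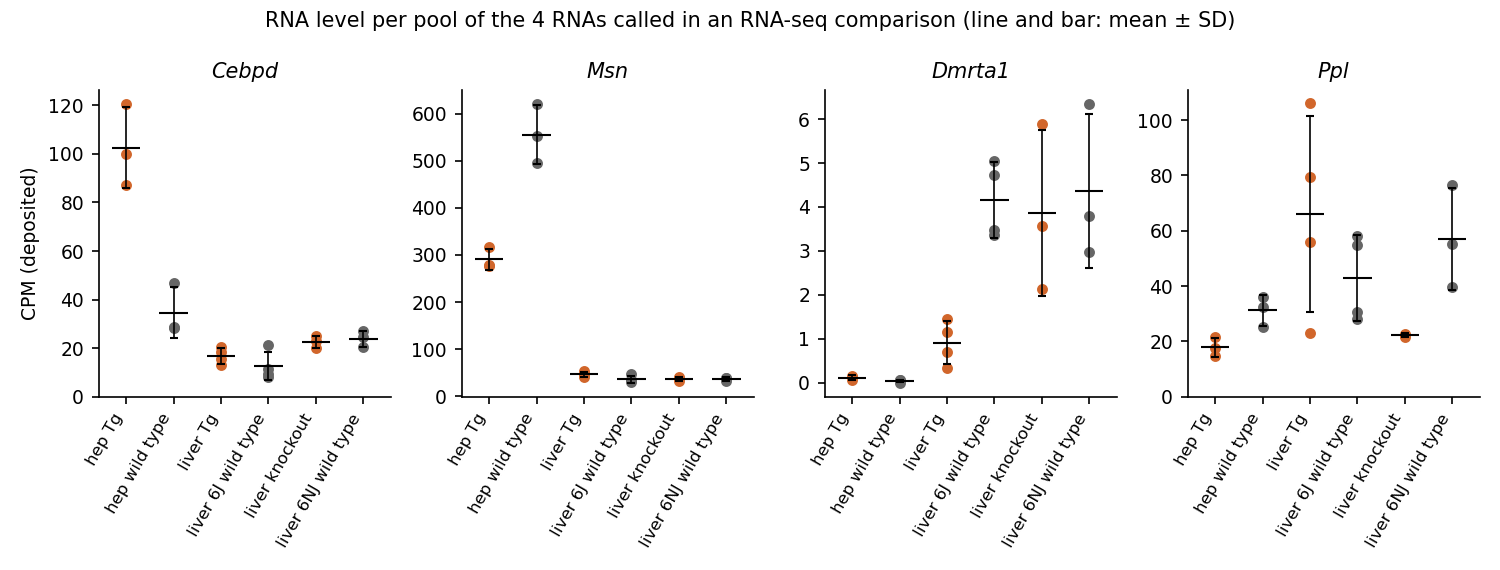
RNA level (CPM, y axis) in each pool (points) of the 4 RNAs called in a comparison, by group (x axis), with the group mean ± SD. Cebpd is higher and Msn lower in Tg hepatocytes, Dmrta1 lower in Tg livers and Ppl lower in knockout livers than in their controls.

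In livers labelled Tg against C57BL/6J, 51 of the 78 were tested and 1 was called, Dmrta1, lower, against 1.33% of 14110 genes (0.971% higher and 0.361% lower). The share of the 51 was 1.96%, again near the background. At an unadjusted p under 0.05 there were 12 of the 51 (23.5%), against 20.3% of all genes. Dmrta1 held 1.15, 1.46, 0.338 and 0.705 CPM in Tg livers and 4.73, 3.48, 3.36 and 5.05 in controls. The groups did not overlap, and its log2 fold change was -2.30 ± 0.41 (SE; edgeR adjusted p = 0.0380). Its adjusted p was 0.117 without Tg pool 4 and 0.113, 0.106 and 0.108 without control pools 1, 3 and 4. Acvr2a, an activin receptor, came next (log2 fold change -0.40, edgeR adjusted p = 0.0689). Control pool 2 held 2162 CPM of 12 skeletal muscle markers and the other pools of the comparison 2.12 to 3.14. Of 8 hepatocyte markers 1 was lower and none higher in every Tg pool, and none was called. They summed to 63640 to 72260 CPM in Tg livers and 94420 to 99680 in controls. Most of that gap was Alb, at 43685 to 50349 CPM against 74451 to 77435. The share of all genes lower in every Tg pool is not given here, so the 1 hepatocyte marker cannot be read as a shift in cells. The part of the muscle or hepatocyte markers in these results was not tested.

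In knockout livers against C57BL/6NJ, 56 of the 78 were tested and 1 was called, Ppl, lower, against 2.98% of 15942 genes (1.5% higher and 1.48% lower). The share of the 56 was 1.79%. At an unadjusted p under 0.05 there were 16 of the 56 (28.6%), against 18.4% of all genes. Ppl held 22.8, 21.4 and 22.4 CPM in knockout livers and 39.6, 55.2 and 76.5 in controls. Knockout pools were close together and all below the controls, with a log2 fold change of -1.37 ± 0.19 (SE; edgeR adjusted p = 0.00697). The adjusted p was 0.213 in a single fit over all 6 groups. Tigar, a regulator of glycolysis, followed at -0.61 (edgeR adjusted p = 0.0571). The median over the 56 was -0.16 and over all genes -0.01, with 22 positive and 34 negative. Of 12 skeletal muscle markers 11 were higher in every knockout pool, with a sum of 22.6 to 113.9 CPM against 0.796 to 1.31. Tnnc2 was at 0 in both groups and Myh4 in the controls. Of 6 stellate cell markers 4 were higher and 1 lower in every knockout pool, with a sum of 276.9 to 296.8 CPM against 217.6 to 238.1. The edgeR test called 10 of the muscle markers higher and none of the stellate cell markers. The share of all genes set apart in this way is not given here, so the stellate cell counts cannot be read as a shift in cells. The part of the muscle and stellate cell markers in the result was not tested.

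**Figure D5:**
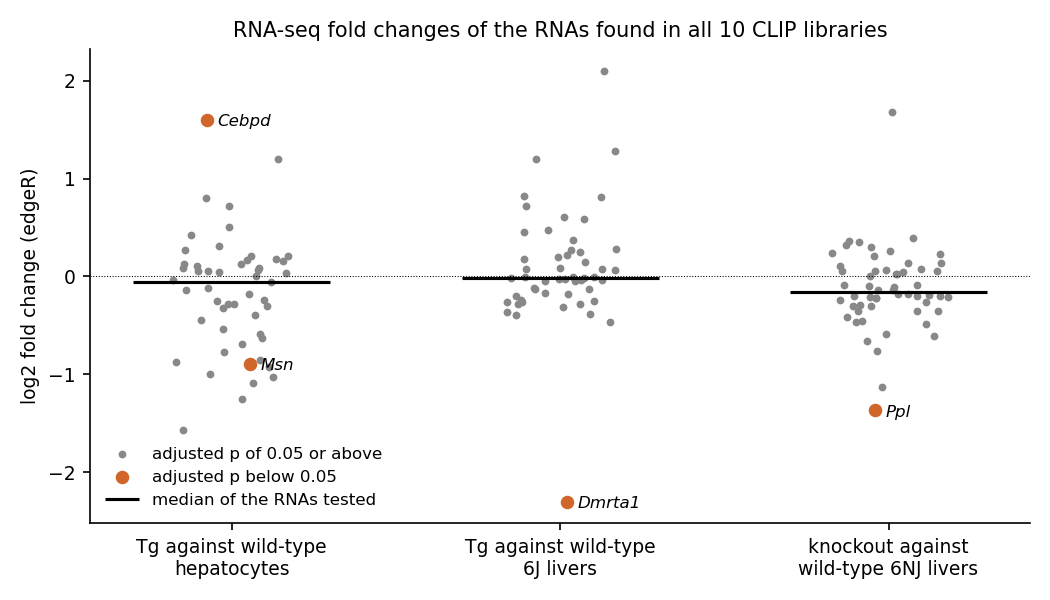
Log2 fold changes of the tested RNAs among the 78 in the 3 RNA comparisons, 1 point per RNA, with those past the threshold in orange and the median as a line. The medians are -0.06, -0.01 and -0.16.

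No RNA of the set was called in more than 1 comparison, and 20 were tested in none because their counts were too low. Those 20 cannot be judged at this depth. Pantr1, Zdhhc22, Tenm2 and Gm26688 are among RNAs with few or no reads in RNA-seq.

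Genes tied to Apob editing, RNA binding or liver secretion held few CLIP counts in all. Over all 41388 genes, 13.7% had a CLIP count. Of genes outside chromosome 14, however, 46.2% had no read in Tg hepatocytes, while every gene listed below had reads there. The 13.7% is thus a low background for these lists. Of the 8064 genes outside chromosome 14 at 10 CPM or more in Tg hepatocytes, 5570 had no CLIP count. No list is therefore read as richer in CLIP counts than expressed genes at large. Of 11 factors of Apob mRNA editing 3 had a CLIP count, 12 counts in all, and none was among the 78. Of 8 mRNAs edited by APOBEC1 3 had a count, 11 in all, of which Rrbp1 had 8 and Apob 2. None of these 8 was called in the 3 comparisons. Of 53 secreted liver proteins 10 had a count, 46 in all, of which Fn1 had 31. Of 38 RNA-binding and splicing factors 12 had a count, 39 in all.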

How the data were processed

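The 78 genes and all gene lists were chosen with earlier results of these data known. The deposited files, of 1 form for CLIP and RNA-seq, hold the authors' whole-number counts per gene, made with STAR 2.0.4b and featureCounts 1.45 on GRCm38, per the submitters' processing notes. The deposited CPM and RPKM values are the authors' own, per the file headers. The annotation, duplicate handling and strand setting are not given in the sources used here. CLIP shares were computed here from the counts. RNA-seq groups were compared with edgeR 4.0.16 (R 4.3.3; filterByExpr with a minimum count of 10, TMM, quasi-likelihood F-test, Benjamini-Hochberg threshold 0.05), each over its own groups and all genes; the procedure was tested on simulated data. Symbols and transcripts came from GENCODE M21 for 40340 of 41388 identifiers. Intervals are 95% Wilson intervals. Genes were named by rule if they were those of highest share, highest and lowest ratio to RNA, lowest share, just outside the limit, or called. Alternatives included DESeq2 1.42.0, no filter, 1 fit over 6 groups, a replicate block and leaving out each library.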

Additional observations from a re-analysis of the deposited data

Results flagged for a closer look

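Of 92 groups of values examined, 9 held a sample that stood apart from the rest of its group. A chance rate of about 1 group in 20 holds only for normally distributed values. Many values here were near 0, and groups of equal values could not be flagged, so no excess over chance can be read from the 9. C57BL/6J liver pool 2, the pool with the skeletal muscle RNA, held 0.9085 CPM of Wnt11 (others 0 to 0.0552), 0.474 of Tenm2 (0 to 0.0570) and 0.869 of Tspoap1 (0.235 to 0.331). Pool 3 held 0.1103 CPM of Zdhhc22 (others 0), and pool 1 held 278.7 CPM of A1cf (others 216 to 218). In CLIP, library 5 held 0.1301% for Msn (others 0.0124 to 0.0434%) and 0.04877% for Mmp27, library 9 0.0584% for Gm14921, and library 10 0.04882% for Fbn2, each on fewer than 10 counts.

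Dmrta1 lay on opposite sides of its controls in hepatocytes and livers. In livers every Tg pool was lower (log2 ratio of means -2.19). In hepatocytes the ratio was 1.64, on 11 reads in all 3 Tg pools against 4 in the wild-type pools, too few for a test, so a higher level there is not shown. The gap of -3.826 was not tested.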

How the results depend on the processing

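CLIP counts were low, and 39 of the 78 RNAs drop out at a minimum of 2 counts. A count in at least 9 libraries gives 130 RNAs, in every one of libraries 1, 3, 4, 6 and 10 235, and of 2, 5, 7, 8 and 9 234; leaving out 1 library gives 79 to 86. The summed share of 33.0% was 32.3 to 34.0% with 1 library left out, and 9.77% without the 4 RNAs of highest share. With 0.1 CPM added, the median ratio to RNA is 8.10.

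RNAs of the set called in hepatocytes (2) were 8 with DESeq2, 9 in 1 fit over all groups and 0 to 17 with 1 pool left out; in Tg livers (1) 3, 2 and 0 to 1; in knockout livers (1) 4, 0 and 1 to 3, and 6 without a filter. Genes called in hepatocytes (434) were 1814 with DESeq2, 669 without a filter, 4323 in 1 fit, 283 without chromosome 14 and 0 to 4934 with 1 pool left out (4934 without Tg pool 3, 0 without wild-type pool 3). In Tg livers (188) they were 1282 with DESeq2, 991 in 1 fit and 27 to 561. In knockout livers (475) they were 848 with DESeq2, 1079 without a filter, 42 in 1 fit and 137 to 645. Median log2 fold changes in hepatocytes were 0.0352 with DESeq2, 0.0371 without a filter, 0.19 in 1 fit, -0.0112 in 3 pools and -0.1671 to -0.0151 with 1 pool left out. In Tg livers they were -0.0028 to 0.0398 with 1 pool left out. In knockout livers they were -0.0889 with DESeq2, -0.0986 without a filter and -0.173 to -0.0557 with 1 pool left out. The 3-pool fit, the genes called under each setting, the counts within a set of 5 CLIP libraries and the sum without 4 RNAs were added after the data were seen. The causes were not tested.

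Replicate numbers did not pair the pools (2 of 10 pairs correlated best with their own number). With a replicate block, RNAs of the set called were 0 in hepatocytes and 0 in Tg livers, and genes called were 21 and 44. The hepatocyte median was -0.11. The edgeR adjusted p was 0.0550 for Cebpd, 0.0738 for Msn and 0.0997 for Dmrta1. Knockout livers changed less, with 214 genes higher and 201 lower against 239 and 236 without the block.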

Other observations

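Some of the 78 RNAs differed between the liver series. Pgam1, a glycolytic enzyme with near-identical copies whose reads may be split, held 3.02 to 5.33 CPM in the 8 pools of Tg and C57BL/6J livers and 57.3 to 64.5 in the 6 pools of knockout and C57BL/6NJ livers. Tunar held 0 in 7 of the 8 pools and 0.0570 CPM in the other, against 0.417 to 0.792 in the 6. Strain, substrain history and experiment cannot be told apart here.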
